A study of Mus musculus with 2 samples.

Results

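The cytosolic ribosomal protein genes encode the proteins of the large (Rpl) and small (Rps) subunits of the ribosome that works outside mitochondria. Members were protein-coding genes of the GENCODE M21 annotation of mouse build mm10 whose symbol is Rpl or Rps followed by a number and at most an a, l, x or y, together with Rplp0, Rplp1, Rplp2 and Rpsa. Kinases of the Rps6k family were left out. The rule found 80 of 21755 protein-coding genes, with 49 in the large and 31 in the small subunit.

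Chromatin accessibility was measured by ATAC-seq, which inserts adapters into open DNA with a transposase, in primary megakaryocytes, the large bone marrow cells that shed platelets. The single group held 2 biological replicates of 50000 cells from adult male C57BL/6J mice aged 5 to 6 weeks, with no treatment named in the labels. Both replicates carry 1 donor record, and sequencers are listed for replicate 2 alone. There was no second cell type, genotype or treatment, so the values below describe these samples, and an SD over n = 2 is the spread between them, which may be technical.

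Ribosomal protein genes are transcribed by RNA polymerase II in nearly every cell, and their products are needed in matched amounts because each ribosome takes a single copy of most of them. Many of their mRNAs begin with a run of pyrimidines, the 5′ terminal oligopyrimidine tract, through which the growth-regulating mTOR pathway and the RNA-binding protein LARP1 control their translation. Many also carry small nucleolar RNAs (snoRNAs), guides for the modification of ribosomal RNA, in their introns. Loss of a single copy of several of these genes causes Diamond-Blackfan anaemia in humans, a failure of red cell production.

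Of the 80 members, 60 had an entry in the RefSeq promoter table of build GRCm38.p6, which runs from 250 bases before to 50 after a start. The entries of 6 members are shown from 70 bases before to 30 after the start on the coding strand, since they include 4 of the members with the most accessible promoters, 1 of the least accessible, and the gene first tied to Diamond-Blackfan anaemia. Capitals mark a pyrimidine tract (a C followed by at least 4 more C or T, beginning within 10 bases of the start) and exact matches on either strand to any of 10 motifs named below.

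Rpl31: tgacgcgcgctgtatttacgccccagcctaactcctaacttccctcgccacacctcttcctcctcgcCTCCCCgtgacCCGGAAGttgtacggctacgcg
Rps10: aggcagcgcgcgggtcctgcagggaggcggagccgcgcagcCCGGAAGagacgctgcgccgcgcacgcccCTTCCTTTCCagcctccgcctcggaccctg
Rps27l: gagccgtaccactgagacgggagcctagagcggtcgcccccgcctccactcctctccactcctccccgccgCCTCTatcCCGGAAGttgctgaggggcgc
Rps16: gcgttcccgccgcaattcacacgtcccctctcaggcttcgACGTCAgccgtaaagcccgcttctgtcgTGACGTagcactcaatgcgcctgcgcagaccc
Rps19: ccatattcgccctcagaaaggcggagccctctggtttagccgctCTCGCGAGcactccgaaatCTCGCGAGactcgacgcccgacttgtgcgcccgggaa
Rpl41: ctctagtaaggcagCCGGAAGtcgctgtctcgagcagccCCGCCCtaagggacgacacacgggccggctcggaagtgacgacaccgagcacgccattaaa

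Rpl31 (chr1:39367781-39367880, plus strand) held a tract of 6 pyrimidines at -3, counted from the start as 0, and then the ETS motif CCGGAAG. Rps10 (chr17:27635215-27635314, minus strand) held CCGGAAG before the start and a tract of 10 pyrimidines counted from the start itself. In both Rpl31 and Rps10 the run of pyrimidines extends upstream of the capitals, which mark only the part counted. Rps27l (chr9:66946016-66946115, plus strand) had a tract of 5 pyrimidines at 1 and CCGGAAG just after it. Rps16 (chr7:28350619-28350718, plus strand) had no tract, and its capitals are 2 matches to the CREB motif TGACGT, the first of them on the opposite strand. Rps19 (chr7:24884522-24884621, plus strand) had no tract at this start, but another of its 3 RefSeq starts had a tract of 7 pyrimidines at 6. Its capitals are 2 copies of the ZBTB33-like motif CTCGCGA, each overlapping its own match on the other strand. Rpl41 (chr10:128549139-128549238, minus strand) had no tract, and its capitals are CCGGAAG and a reverse-strand match to the SP/KLF motif GGGCGG.

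The accessibility summits lay close to these starts. In replicate 1 and replicate 2 they were at -47 and -41 for Rpl31, at -58 and -48 for Rps10, and at -55 and -67 for Rps27l. They were at -69 and -76 for Rps16, at -22 and -28 for Rpl41, and farther upstream, at -150 and -157, for Rps19. In all, the summits of Rpl31, Rps10, Rps27l, Rpl41 and the first summit of Rps16 fell inside the stretch shown, while those of Rps19 did not.

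Across the promoter table, a pyrimidine tract was present in 38 of 60 members (63.3%), against 35.4% of 16433 genes and 37.3% of the 10199 of these with a promoter region found in both replicates. Counted as for Rps10 above, the longest tracts had 17, 14 and 13 pyrimidines, from -1 in Rpl27a, 2 in Rpl13a and 0 in Rpl15. Any pyrimidines directly upstream of these positions were not counted. The tract definition matters for the comparison, because a minimum of 4 pyrimidines was met by 66.7% of members and by 53.3% of all genes, and a minimum of 6 by 55% and 22.6%. Among the lists of comparison, 44.9% of the genes of the mitochondrial ribosome had one. In the list of translation factors and terminal pyrimidine mRNAs it was present in 10 of 31 genes (32.3%), below the 35.4% of all genes. That list was put together in part from mRNAs known for such a tract. A called tract is therefore a description of the sequence at the RefSeq start only.

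The motifs were searched as exact letters on both strands over the whole window, and a match is a description of the sequence only. ETS (CCGGAAG) was found in 25 members (41.7%), against 13.4% of all genes and 19.8% of genes with a shared promoter region. The share was 46.3% in ribosome biogenesis genes and 37.7% in the mitochondrial ribosome, so the members did not stand alone in it. ZBTB33-like (CTCGCGA) was found in 13 members (21.7%), against 3.11% of all genes and 4.48% of genes with a shared promoter region. It was found in 2.9% of genes of the mitochondrial ribosome, 3.12% of proteasome genes and 9.76% of ribosome biogenesis genes. The 13 were Rpl10a, Rpl12, Rpl26, Rpl27a, Rpl35, Rpl37a, Rpl7a, Rps15, Rps15a, Rps19, Rps28, Rps6 and Rps9.

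Other motifs were closer to their share in genes with a shared promoter region. CREB (TGACGT) was found in 20% of members and 13.1% of genes with a shared promoter region, and NRF1 (GCGCATG) in 13.3% and 7.83%. Over all genes the shares were lower, 9.93% for CREB and 5.58% for NRF1. YY1 (AGATGGC) was found in 11.7% and 8.29%, the TATA box (TATAAA) in 10% and 8.61%, and the E-box (CACGTG) in 10% and 11.7%. SP/KLF (GGGCGG) was found in 60% and 67.9%, and the CCAAT box (CCAAT) in 31.7% and 43%. The shares for these motifs include any letters they have in common with a tract or with each other. The GATA motif AGATAAG is named for the factors that include the megakaryocyte regulator GATA1. It was found in 1 of 60 members (1.67%), against 2.39% of genes with a shared promoter region. That member, Rpl3l, had no such region, and 0 of the 57 members with one held the motif. The members' shares for all motifs are over the 60, which include members without such a region.

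Base composition is given beside these shares. The median GC content was 56.8% in members, 57% in all genes and 60.7% in genes with a shared promoter region. The median ratio of observed to expected CpG was 0.863 in members, 0.588 in all genes and 0.745 in genes with a shared promoter region. The ribosome biogenesis genes had a ratio of 0.871, the mitochondrial ribosome 0.818 and the translation factors 0.946. The translation factors had a higher CpG ratio than the members. Their shares were lower for the tract (32.3%), ETS (29%), ZBTB33-like (6.45%) and the CCAAT box (25.8%). They were higher for SP/KLF (67.7%), the E-box (29%), NRF1 (25.8%) and CREB (22.6%). The same held for YY1 (16.1%), the TATA box (12.9%) and GATA (3.23%). The part of CpG content in the members' shares was not tested.

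**Figure D1:**
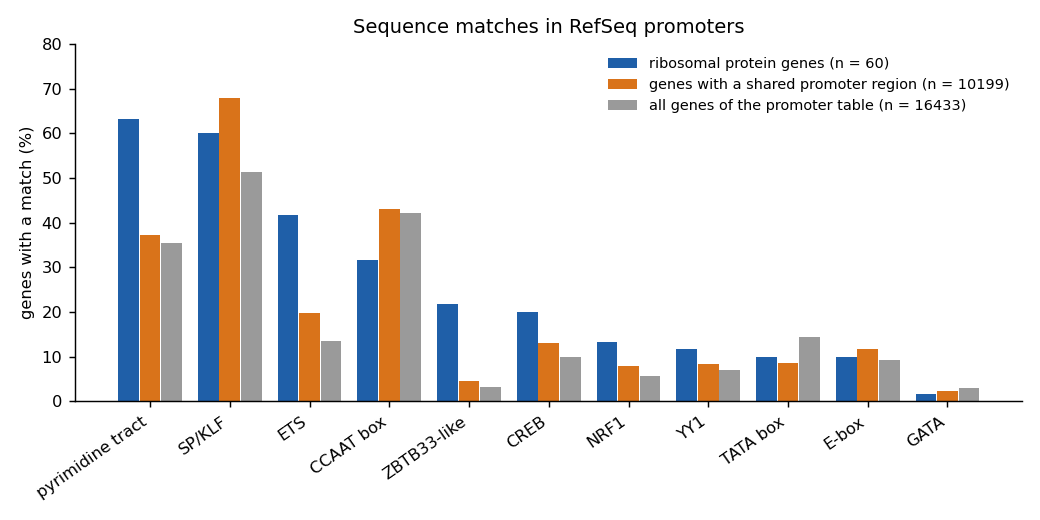
Share of genes (y axis, %) whose RefSeq promoter holds a pyrimidine tract at the start or an exact match to each motif (x axis), for the 60 ribosomal protein genes in the table, for 10199 genes with a shared promoter region and for all 16433 genes. The members' bar is above both others for the tract (63.3%), ETS (41.7%), ZBTB33-like (21.7%), CREB, NRF1 and YY1, and below both for the CCAAT box and GATA.

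The members with no entry in the table included Rpl17, Rpl21, Rpl23a, Rpl29, Rpl3, Rpl30, Rpl32, Rpl36, Rpl7, Rpl8, Rplp1, Rps14, Rps20, Rps27a and Rps29.

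The deposited peak lists gave 108744 peaks in replicate 1 and 114484 in replicate 2 on the chromosomes used (1 to 19 and X), with no read counts, so the depth is unknown. Overlapping peaks were merged into regions, and regions that overlapped between the replicates were called shared (69539 in all). The lists fitted the megakaryocyte label only in part. Shared promoter regions were found at 6 of 15 megakaryocyte markers (Itga2b, Nfe2, Vwf, Itgb3, Gata1 and Pf4) and were missing at Gp1ba, Gp1bb, Gp5, Gp6, Gp9, Ppbp, Selp and Tubb1, among others, while 9 of 10 neutrophil markers and 6 of 6 monocyte and macrophage markers had one. The counts were 2 of 6 for erythroid, 3 of 5 for B cell, 0 of 5 for T cell and 0 of 5 for hepatocyte markers. The signal of ribosomal protein genes, which nearly all cells use, cannot be assigned to one of these cell types here.

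Nearly all members had open promoters. A region within 500 bp of an annotated transcript start was found for 77 of 80 members in replicate 1, where 60.9% of all protein-coding genes had one. In replicate 2 the same 77 members had one, beside 61.3% of all genes. Shared regions were found at 77 members (96.2%), beside 59.8% of all genes. The 77 comprised 46 of 49 large subunit genes and 31 of 31 small subunit genes. Other parts of the protein production and turnover machinery were as fully represented, with 78 of 78 mitochondrial ribosomal protein genes, 48 of 48 ribosome biogenesis genes, 13 of 13 genes of RNA polymerase I transcription, 39 of 39 translation factors and 37 of 39 proteasome genes.

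The 3 members without a promoter region were paralogues of restricted expression. Rpl3l (chr17:24727820-24736143) encodes the muscle form of Rpl3, Rpl10l (chr12:66283379-66284401) the testis form of the X-linked Rpl10, and Rpl39l (chr16:10170226-10174911) a relative of the X-linked Rpl39 best known from male germ cells. None of the 3 had a region in either replicate, and at unknown depth that means not detected. Their partners were open in both replicates: Rpl3 had fold enrichments of 14.4 and 14.6, Rpl10 of 11.0 and 10.8, and Rpl39 of 14.1 and 14.8. The fourth paralogue of the list, Rps27l, is induced by p53 and was among the 5 highest members. It had fold enrichments of 18.3 and 16.0.

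Fold enrichment is the height of a peak over its local background as the authors deposited it, and a gene's value is that of its strongest shared promoter region. The members' medians were 14.1 (replicate 1) and 13.6 (replicate 2), and the median of their means was 13.8 ± 0.353 (SD of the 2 replicate medians, n = 2). All 13004 protein-coding genes with a shared promoter region had medians of 11.7 and 11.4, with 11.5 for the means. The members' median lay at the 70.9th percentile of those genes. Of the 77 members, 61 were above the median of all genes, 34 were above the 75th percentile, 9 above the 90th and 5 below the 25th. The middle of the distribution was narrow, since 18 members had a mean between 14 and 15.

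**Figure D2:**
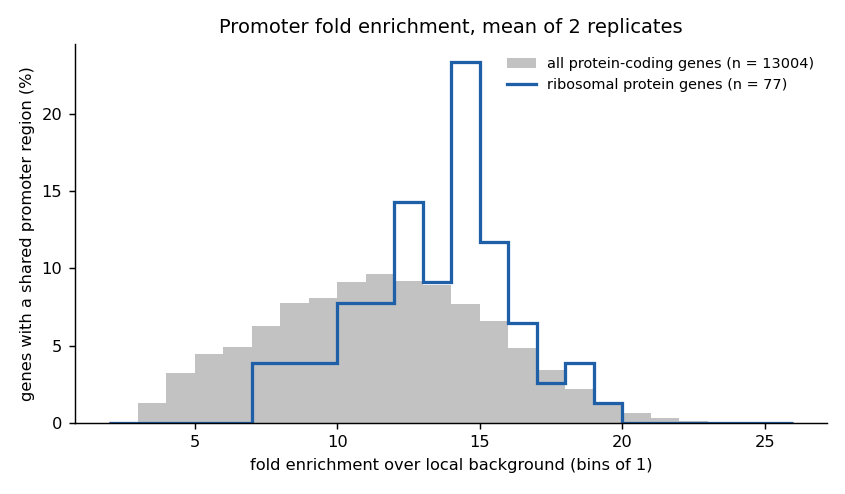
Distribution of promoter fold enrichment (x axis, mean of 2 replicates, bins of 1) for the 77 ribosomal protein genes and for all 13004 protein-coding genes with a shared promoter region, as percent of each group (y axis). The members reach 19.1 and peak between 14 and 15, while all genes spread from 2.56 to 24.3 around a median of 11.5.

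The member with the highest mean was Rpl31, a large subunit protein near the exit of the peptide tunnel. Its region (chr1:39367490-39368136) had fold enrichments of 19.9 and 18.2, a mean of 19.1 ± 1.19. Rps10, of the small subunit, had 18.6 and 18.7 at chr17:27634933-27635605, above Rpl31 in replicate 2, and the means of the pair differed by less than the SD of Rpl31. Rps16, which hosts the snoRNA gene AF357399, had 19.3 and 17.5 at chr7:28350269-28351081. Rpl27, of the large subunit, had 18.4 and 17.9 at chr11:101441986-101442708. In each replicate these 4 genes and Rps27l were all above the 14.1 and 13.6 at which the members' medians stood.

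Among the weakest promoters was that of Rpl7, a large subunit gene, with fold enrichments of 7.45 and 7.66 and a mean of 7.56 ± 0.150. Its region was chr1:16104055-16105517, a wide region of 1463 bp that also reaches a start of the retinol dehydrogenase gene Rdh10. Rpl41, which encodes the smallest ribosomal protein, had 8.13 and 7.79. Rpl36 had 8.17 and 7.90 in a narrow region of 352 bp, where the members' median width was 929 bp and that of all genes 873 bp. Rpl18 had 7.97 and 8.25 at chr7:45715096-45715700, a region shared with Sphk2, the sphingosine kinase gene that starts 250 bp away on the other strand. At the RefSeq start of Rpl18, in a second region (chr7:45717654-45718385), the values were lower still, 6.63 and 6.13. In both replicates these low genes were apart from the 5 highest, with no overlap. That separation follows from the ordering by mean and is given as a description.

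Neighbours in the order of levels could mostly not be told apart. For 72 of the 76 neighbouring pairs, the gap between the means was no larger than an SD of 1 of the 2 genes. The SD over members' means was 2.66, while the median SD between replicates was 0.426, so the spread between members was wider than the spread between replicates.

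**Figure D3:**
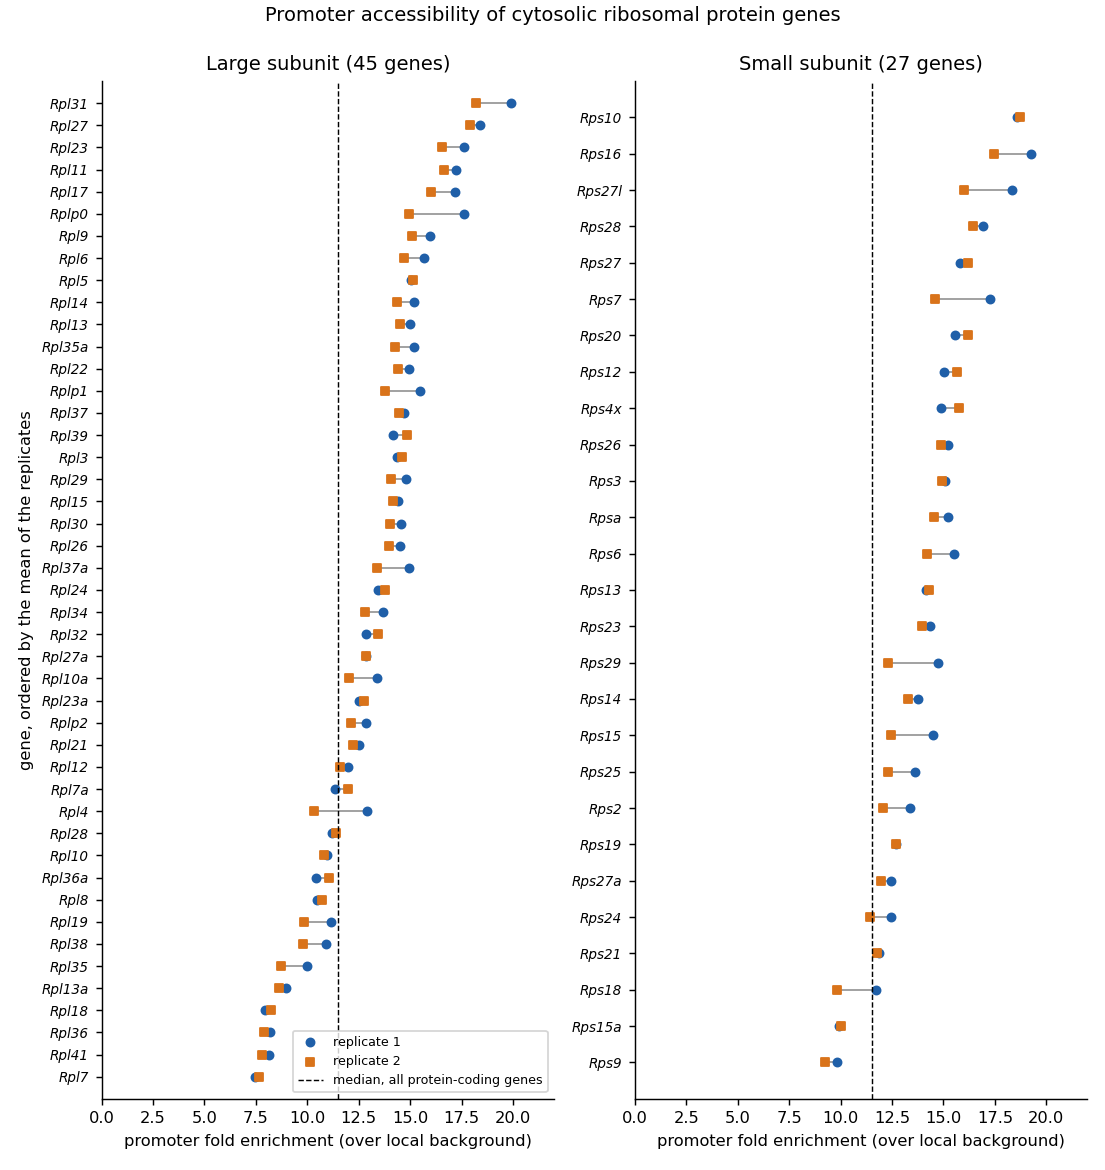
Promoter fold enrichment (x axis) of 45 large subunit and 27 small subunit genes with a shared promoter region, ordered by their mean (y axis). Circles are replicate 1, squares replicate 2, grey lines join them, and the dashed line is the median of all protein-coding genes (11.5). The replicates stay close together for most genes, with the widest gap relative to level at Rpl4 (12.9 and 10.3).

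The subunits were similar in level. The large subunit genes had medians of 13.6 and 13.4 and the small subunit genes of 14.5 and 14.0. The difference between the subunits' medians of means (13.4 and 14.2) was small beside the quartiles of either group, 11.3 to 14.7 and 12.7 to 15.5. The 3 proteins of the stalk, the lateral arm of the large subunit that recruits translation factors, were all open. Rplp0, the base of the stalk, had 17.6 and 15.0, Rplp1 had 15.5 and 13.8, and Rplp2 had 12.9 and 12.1. All 3 were lower in replicate 2. Rplp0 and Rplp1 differed by less than the SD of Rplp0 (1.88), while the gap from Rplp1 to Rplp2 was larger than the SD of either (1.21 and 0.503).

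All 10 listed Diamond-Blackfan anaemia genes had a shared promoter region, with a median of 14.9, and the mean of each was above the 11.5 of all genes. Rps10 was highest of them. Rpl11 and Rpl5, which with 5S ribosomal RNA form the particle that binds the p53 regulator MDM2, had 17.2 and 16.6, and 15.0 and 15.1. Rps19, the gene most often mutated in the disease, had 12.7 in both replicates. This was the 61.2nd percentile of all genes, below the members' median.

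The other Diamond-Blackfan genes lay between those levels or close to Rps19. Rps7 had 17.3 and 14.6, and Rps26 15.2 and 14.9. Rpl35a had 15.2 and 14.3, and Rpl26 14.5 and 14.0. Rps24 was the lowest of the 10, with 12.4 and 11.4. The low promoters of Rpl7, Rpl41, Rpl36 and Rpl18 are not in this list.

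Host genes of snoRNAs were also close to the others. The 29 members that contain a snoRNA gene on their own strand (56 snoRNA genes in all) had a median of 14.3, and the 48 open members that contain none had 13.6. The 11 members with a protein-coding neighbour starting within 1 kb upstream on the other strand had a median of 12.7, against 14.2 for the other 66 open members. That median is the value of Rps2, whose strongest region lay 1.95 kb inside the 5′ end, away from the neighbour's start. The strongest region of Rps24 (11.9) likewise lay 3.56 kb inside. The other 66 include Rpl7, Rpl15, Rpl35, Rps10, Rps18 and Rps27a, whose strongest region lay at another protein-coding start too. Their means ran from 7.56 (Rpl7) to 18.6 (Rps10). Of the 77 strongest regions, 41 lay at the start of no other gene, 15 also at another protein-coding start and 14 also at a snoRNA start. Their fold enrichment cannot be split between the genes that share them.

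By sequence, the 35 open members with a pyrimidine tract had a median of 12.7 and the 22 without one had 14.8. The ranges overlapped almost fully, from 8.11 to 19.1 and from 7.96 to 18.4. The 8.11 is the strongest region of Rpl18, whose tract lies at its RefSeq start in its second region, with a mean of 6.38. Members with and without ETS had 14.3 and 14.2. Members with ZBTB33-like had 12.7 (13 genes) and those without 14.6 (44 genes). These are descriptions over genes, with no test.

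The ribosomal protein genes sat among the other lists rather than apart from them. The median of means was 14.5 for the mitochondrial ribosome, 14.6 for ribosome biogenesis, 15.2 for RNA polymerase I transcription, 15.3 for the proteasome and 12.3 for translation factors. Wdr74, Brix1 and Nle1, which act in large subunit assembly, were the highest biogenesis genes, with means of 20.7, 18.9 and 18.7. By −log10 p-value, which grows with depth and width as well as height, the members' median lay at the 65.1st percentile. Ribosomal proteins whose symbols fall just outside the naming rule had a median of 12.9 at the 7 of 8 with a region, with Rpl22l1 (15.7), Rps3a1 (15.6), Rpl7l1 (14.5), Rpl36al (12.9), Rack1 (12.0) and Fau (10.7) among them. Rps27rt had none.

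**Figure D4:**
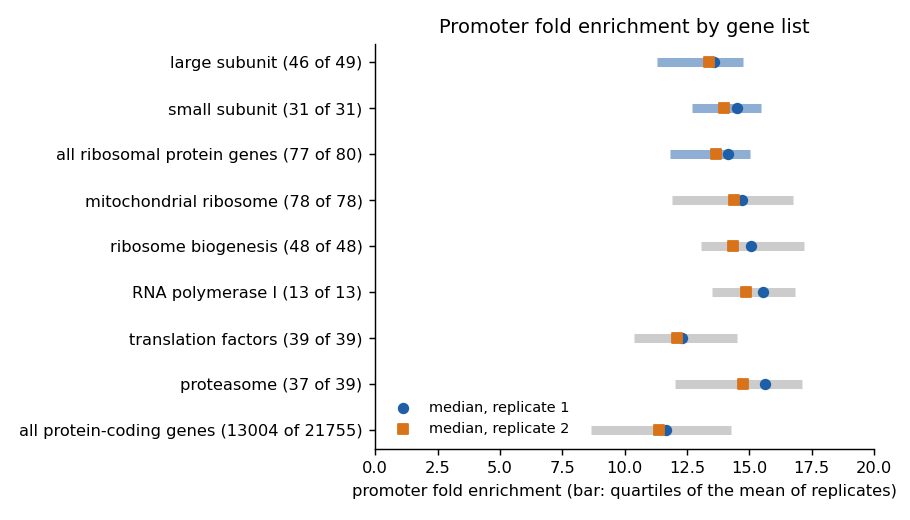
Promoter fold enrichment (x axis) by gene list (y axis, with the number of genes that have a shared promoter region of all genes in the list). Circles and squares are the medians of replicates 1 and 2 and bars span the quartiles of the mean. The ribosomal protein genes (14.1 and 13.6) lie above all protein-coding genes (11.7 and 11.4), below the proteasome (15.6 and 14.7), and within the quartiles of every list drawn.

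The replicates differed little at these promoters. The median log2 ratio of replicate 2 to replicate 1 was -0.05 over 77 members, with an SD of 0.09, and -0.04 over all protein-coding genes, with an SD of 0.16. The ratio was above 0 for 20 of 77 members (26%), against 37.4% of all genes. Replicates lay within 1.2-fold for 75 members (97.4%) and 91.4% of all genes, and within 1.5-fold for all 77 members and 99.4% of all genes. The largest differences were at Rpl4 (-0.32), Rps29 (-0.26), Rps18 (-0.25), Rps7 (-0.24) and Rplp0 (-0.24), all lower in replicate 2. No scaling between the samples is stated.

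Of these 5 genes, 3 had another gene's start at the same region, which was so for 36 of all 77 open members. Rpl4, which hosts 5 snoRNA genes and had 12.9 and 10.3, had its summits at -472 and -471 from its nearest start, on the far side of the start of the mitotic checkpoint gene Zwilch, which lies 271 bp away on the other strand. The region of Rps29 (14.8 and 12.3) also holds a start of Rn7s1, a gene for the RNA of the signal recognition particle. The region of Rps18 (11.7 and 9.83) also reaches the start of the vesicle tethering gene Vps52. The regions of Rps7 and Rplp0 reached no other start.

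The 4 open members on chromosome X had a median log2 ratio of 0.08, with 3 of 4 higher in replicate 2, against -0.06 and 17 of 73 on the autosomes. Over all protein-coding genes the medians were -0.02 on X (174 of 393 higher) and -0.04 on the autosomes (4684 of 12611 higher). Rps4x had 14.9 and 15.8, Rpl36a 10.4 and 11.1, Rpl39 14.1 and 14.8, and Rpl10 11.0 and 10.8. Both samples are labelled male, and this split was chosen after the values were seen.

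Summits lay at or just upstream of the starts. The members' median offset from the nearest annotated start was -27.5 bp, against -34.5 bp for all genes. From the 5′ end the medians were -10 and -9.5 bp. The nearest of several starts can lie closer than a single one, and the numbers of starts per gene were not compared. The mean of the 2 summits was within 100 bp of a start for 67 of 77 members (87.0%), against 69.0% of all genes. It lay upstream for 61 members (79.2%), against 74.8% of all genes. The summits of the replicates were a median of 6 bp apart (7 bp for all genes). In 72 of 77 members they were within 50 bp of each other, a count given without the share of all genes.

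**Figure D5:**
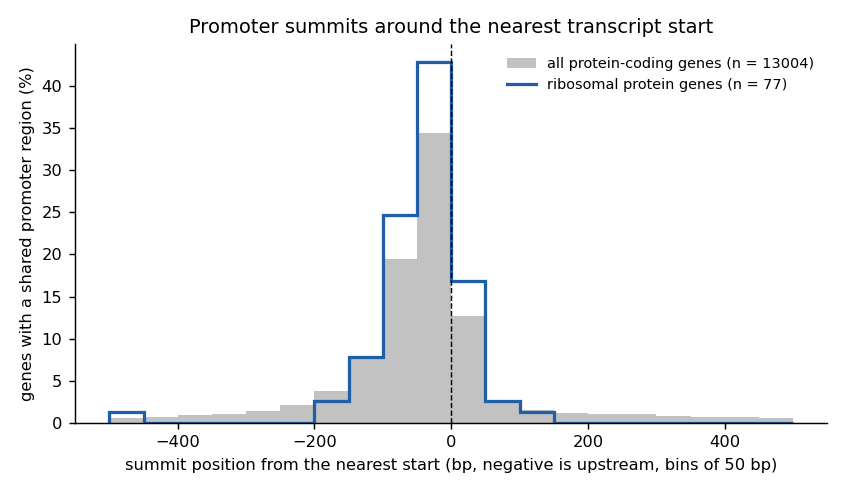
Position of the promoter summit relative to the nearest transcript start (x axis, bp, mean of 2 replicates, bins of 50 bp, negative values upstream) for 77 ribosomal protein genes and 13004 protein-coding genes, as percent of each group (y axis, genes outside the drawn range not shown). The bin just upstream of the start holds 42.9% of the members, and the only member beyond 200 bp is Rpl4.

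Some members had their strongest region far from the annotated 5′ end. The strongest regions of Rps14, Rpl3, Rps24, Rpl17, Rps2 and Rps10 all lay over 1 kb inside it, at a later annotated start, though Rpl3 and Rps24 also had a shared region at the 5′ end itself. When the 5′ end was the only start allowed, 73 members had a shared promoter region, and Rpl17, Rps10, Rps14 and Rps2 were the 4 lost. The share of all protein-coding genes at that setting is not given, so the 73 stands without a background. In all, 7 of 77 members (9.09%) had more than 1 promoter region, 2 in each case, against 24% of all genes with a shared promoter region. In Rps24 these were nearly equal, with 12.6 and 10.6 at the 5′ end and 12.4 and 11.4 at a start 3.56 kb inside. In Rpl11 they were unequal, with 17.2 and 16.6 near the 5′ end and 9.08 and 6.46 at a start 24.6 kb inside.

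Distal accessible regions, which lie over 1 kb from any transcript start, were present within 50 kb of the 5′ end of 76 members (95%), beside 74.7% of all protein-coding genes. The mean per member was 3.73 and the median 3, against 3.04 and 2 for all genes. The mean was 3.74 for translation factors, 3.59 for proteasome genes, 3.17 for mitochondrial ribosomal protein genes, 3.08 for ribosome biogenesis genes and 2.31 for genes of RNA polymerase I transcription. Among the marker lists it was 7.9 for neutrophil, 6 for monocyte and macrophage and 4 for megakaryocyte markers. It was 3.2 for T cell, 2.6 for B cell, 2 for hepatocyte and 1.67 for erythroid markers. The members' mean was thus close to that of translation factors and proteasome genes and above the other lists of broadly used genes. It lay within the range of the marker lists.

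The members with most distal regions were Rps14 with 13, Rpl14 with 11, and Rplp0, Rpl5 and Rps16 with 8 each. For Rps14, the small subunit gene in the deleted interval of the human 5q- syndrome, the count depends on an annotated 5′ end over 20 kb from its open promoter, and from the promoter summit it was 11. Of its 13 regions 6 lay inside the neighbouring gene Ndst1 and 3 inside Rps14 itself. Of the 8 near Rplp0, 7 lay inside Pxn, the gene of the adhesion protein paxillin. Rpl10l, Rpl36, Rpl39l and Rps4x had none.

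The distal regions were split about evenly between the sides of the 5′ end. There were 291 regions and 298 pairs of a member with a region, 143 upstream and 155 downstream of the 5′ end. Only 6 pairs had the region inside the member (in Rps14, Rpl11 and Rpl22). By distance, 10 pairs lay 1 to 5 kb away, 37 at 5 to 10 kb, 71 at 10 to 20 kb, 73 at 20 to 30 kb, 59 at 30 to 40 kb and 47 at 40 to 50 kb. The remaining pair is a region near Rpl31 whose edge lies within 50 kb and whose summits lie 50.2 kb away. The median fold enrichment was 6.85, against 7.12 for the 31481 distal regions within 50 kb of any protein-coding gene. The regions also lie near other genes, 147 of them inside one, and 7 were within reach of 2 members (4 of them of Rpl3l and Rps2), so they cannot be assigned to the members.

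The strongest distal region near a member lay 38.5 kb upstream of Rps19 (chr7:24845721-24846176), with 20.4 and 20.6. It was above the Rps19 promoter itself at 12.7. The next, 28.8 kb downstream of Rps25 inside Foxr1 (chr9:44435617-44436283), had 19.4 and 19.5. These regions were named after their values were seen.

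Ribosomal protein genes have many processed pseudogenes, copies of their mRNAs pasted back into the genome without the promoter. The annotation held 291 pseudogenes named after 59 of the members. A shared region within 500 bp of the start was found for 7 of them (2.41%), against 411 of 9851 other processed pseudogenes (4.17%), and no shared summit lay inside any of the 291. The highest of the 7, Rpl29-ps2 (17.7 and 16.6), shares its region with the start of the reductase gene Akr1e1. The next was Rpl5-ps2, with 14.4 and 13.2, and the others had means of 4.04 to 7.25. How reads that match several copies were treated is not given in the sources used here.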

How the data were processed

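The authors deposited peak lists of ATAC-seq for each sample and for the pooled samples, on mm10 per the labels. Per the readme texts the authors deposited, peaks were called from filtered alignments with a list of excluded regions. The aligner and peak caller are not given in the sources used here. In the deposited lists, column 7 is the fold enrichment over local background (a ratio) and column 8 the −log10 p-value, and column 10 gives the summit, as the peak format defines them. No columns were unassigned (0). The pseudoreplicated lists of both samples were used, and no depth or read count was given.

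Peaks overlapping by at least 1 bp were merged and shared regions taken as unions across replicates, in Python 3.11.15 (numpy 2.4.6, matplotlib 3.10.9). Promoter meant within 500 bp of any GENCODE M21 start, and distal over 1 kb from every start. The region code was tested on simulated data. With 1 group of 2 samples no test was made, and lists were described beside all protein-coding genes. Members and lists were chosen with earlier results of these data known. Genes named were the 5 highest and 5 lowest members, those without a promoter region, the 5 with most distal regions (and ties), the 5 with the largest replicate ratio, the Diamond-Blackfan genes, the restricted paralogues and symbols just outside the rule. A few genes chosen this way are not reported here. Of the other lists, the 3 highest biogenesis genes were named. Of 8 candidate promoters in the table, Rpl18 (start far from its summit) and Rpl27 (no tract or motif in the stretch) were left out. Alternatives covered peak lists, thresholds, overlap, windows, starts, the naming rule and each replicate left out.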

Additional observations from a re-analysis of the deposited data

How the results depend on the processing

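The count of 77 members with a shared promoter region was unchanged under every alternative run except the 5′ end as the only start (73) and a wider naming rule (81). Shares of all protein-coding genes under these alternatives are not given. The members' median fold enrichment (13.8) was 14.6 in the replicated and the conservative lists of the pooled samples and 14.1 with the wider naming rule, and 13.6 to 14.1 with 1 replicate left out. The cause of the higher values in the pooled lists was not tested. Its percentile of 70.9 became 65.1 by −log10 p-value. The mean number of distal regions (3.73) was 1.91 in the lists thresholded on the irreproducible discovery rate, 5.41 in the replicated list, 3.18 in the conservative list, 3.6 with 50% reciprocal overlap and 3.24 with peaks of at least 4-fold. It was 1.5 within 20 kb and 7.29 within 100 kb, 4.14 and 3.03 with distal set at over 500 bp and over 2 kb from a start, and 4.39 to 4.4 with 1 replicate left out. These shifts follow from counting fewer or more regions. Means over all genes at these settings are not given, so the members' comparison with all genes was not followed across them. Counted from the promoter summit, an alternative chosen after seeing the data, it was 3.81 over the 77 open members. The median summit offset from the 5′ end (-10 bp) was -5 to -10 with 1 replicate left out and -27.5 from the nearest start. In the window from 100 bases before to 50 after the start, the E-box was found in 2 members and GATA in 0, by the shorter window. NRF1 stayed at 13.3% of members there, against 3.99% of all genes. For 27 named members, 0 of 322 promoter values under the alternatives moved by over 1.5 times, and 26 moved by more than the SD, upward in the pooled lists. Leaving out 1 of 2 replicates cannot move a mean by more than the SD. No paired analysis was possible because there was 1 group. At unknown depth a missing region is only not detected.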
